A study of Mus musculus with 2 samples.

Results

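Cytotoxic lymphocytes formed a small part of the cells sorted from these mouse tumours. They were chosen by their own transcripts from 2 single-cell libraries, and 92 of 12864 kept barcodes (droplets with the RNA of at least 200 genes and at most 10% mitochondrial molecules) met the rule. A barcode entered the CD8 arm when it held at least 2 unique molecular identifiers (UMIs, each 1 counted RNA molecule) of Cd3d, Cd3e and Cd3g together and at least 1 UMI of Cd8a or Cd8b1. It entered the NK arm when it held 0 CD3 UMIs and at least 2 UMIs of Ncr1, Klre1 and Klrb1c together. Barcodes with 5 or more UMIs of the mCherry construct were left out of both arms. Of the young library, 36 barcodes were in the CD8 arm and 10 in the NK arm. Of the adult library, 29 and 17 were.

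The study sorted mCherry-positive cells from pooled tumours of young and of adult mice, 4 and 24 weeks old by the labels, and both samples carried the stage label d7. Each age was 1 library for a target of 10000 cells, prepared by the v2 chemistry of the 10x Genomics 3' assay, so no difference between ages could be tested against a spread between animals. The series title concerns antigen cross-presentation and the differentiation of CD8 T cells in young tumour-bearing hosts. The labels name neither the tumour, the mouse strain nor the cells that carried mCherry, and both groups share the sort and the reporter.

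CD8 T cells and NK cells kill by the same machinery. Both store perforin, which opens the membrane of the target cell, and granzymes, proteases that enter through it and start cell death, and both secrete interferon gamma. They find their targets differently: a CD8 T cell reads peptide on MHC class I with its clonal T cell receptor, while an NK cell sums signals from germline-encoded activating and inhibitory receptors, among them the Ly49 lectins that bind class I. In tumours, CD8 T cells that meet antigen for long gain coinhibitory receptors such as PD-1 and LAG-3.

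Because the rule read the barcodes' own genes, every difference between the arms is given as a description of how these barcodes look, with no test. Levels are CPM, the UMIs of a gene per 1000000 UMIs summed over an arm in 1 library. All intervals are 95% intervals of counting error only, and they hold no variation between animals. Intervals of levels and of their ratios treat the summed UMIs as independent counts. They therefore hold no variation between barcodes either, and are too narrow where few barcodes carry a gene. The 8 genes of the rule behaved as the rule required. Cd3e stood at 469 and 613 CPM in the young and adult CD8 arm, Cd8a at 467 and 578 CPM and Cd8b1 at 485 and 847 CPM. Both CD8 chains were read in 34 of 36 young and 19 of 29 adult barcodes of the CD8 arm. In the NK arm, Ncr1 stood at 48.7 and 189 CPM and Klre1 at 438 and 307 CPM. The remaining markers of cytotoxic cells, Gzma and Prf1, were present in both arms of both libraries, beside 0.505 and 0.455 CPM of Gzma and 0.253 and 0.0207 CPM of Prf1 in a macrophage reference, the barcodes with at least 20 UMIs of a macrophage gene list and none of the 8 rule genes.

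Members close to the thresholds were few in the CD8 arm and more frequent in the NK arm. Of the CD8 arm, 1 young and 4 adult barcodes held exactly 1 CD8 UMI, and 0 young and 1 adult barcode held exactly 2 CD3 UMIs. Just outside, 26 young and 13 adult barcodes held a CD8 UMI but 0 CD3 UMIs. Of the NK arm, 2 young and 7 adult barcodes held exactly 2 NK UMIs, and 16 young and 36 adult barcodes just outside held 1 NK UMI and 0 CD3 UMIs. No NK-arm barcode held a CD8 UMI, and 2 young CD8-arm barcodes held 2 or more NK UMIs. The libraries shared 111 barcode sequences, of which 1 was an arm barcode in 1 library and none was an arm barcode in both.

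RNA of other cells was read in many of the 92 barcodes, and it bears on each result that follows. A list of 12 macrophage genes took a median 0.0799% of UMIs in young and 0.0472% in adult CD8-arm barcodes, against 1.56% and 1.27% in the 5869 young and 4440 adult barcodes of the macrophage reference. The summed level of the list was 6749 and 4880 CPM in the CD8 arm, 1567 and 2067 CPM in the NK arm and 18115 and 15823 CPM in the reference. Most of it sat in few barcodes. A barcode was counted as rich in myeloid RNA when it gave over 0.2% of its UMIs to the macrophage list or over 1% to the MHC class II genes Cd74, H2-Aa, H2-Ab1 and H2-Eb1. That held for 15 of 36 young and 4 of 29 adult CD8-arm barcodes and for 2 of 10 young and 8 of 17 adult NK-arm barcodes. Results are therefore given over all barcodes and, where they change, over the 63 others, 21 young and 25 adult in the CD8 arm and 8 young and 9 adult in the NK arm. A pair of cells in 1 droplet and free RNA cannot be told apart here.

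**Figure D1:**
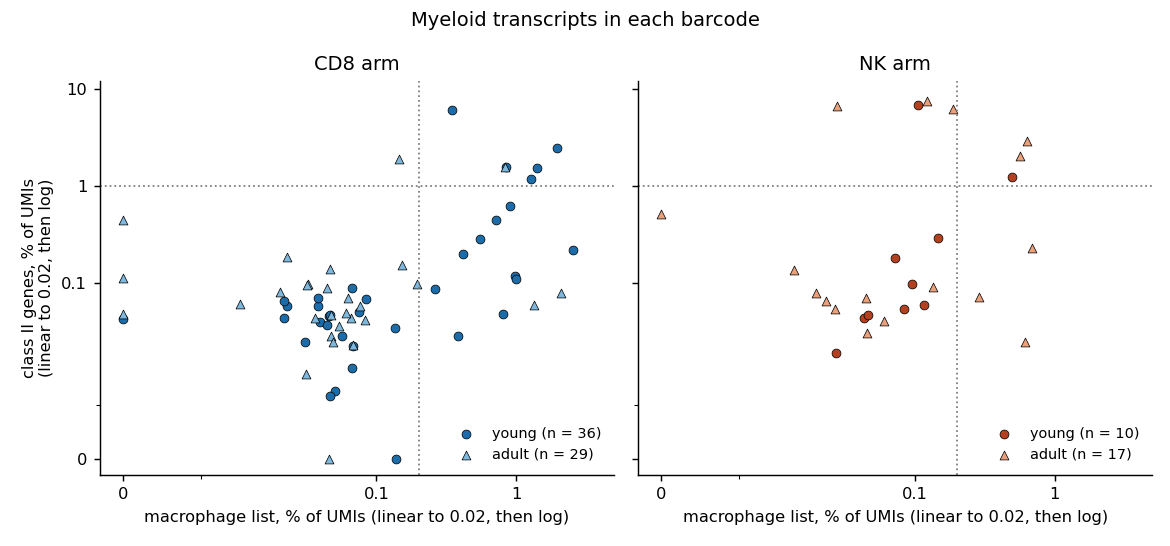
Share of UMIs given to 12 macrophage genes (x axis, %) and to 4 MHC class II genes (y axis, %) in each barcode, with both axes linear to 0.02 and then logarithmic; circles are young and triangles adult barcodes, and dotted lines mark 0.2% and 1%. More young than adult CD8-arm barcodes lie right of or above the lines (15 of 36 against 4 of 29), and in the NK arm more adult than young (8 of 17 against 2 of 10).

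Of other cell types, dendritic genes were read mainly in the adult NK arm and neutrophil genes in the young CD8 arm. The 6 B and plasma cell markers and the 7 markers of type 2 innate lymphoid and mast cells were all at 0 UMIs in the NK arm of both libraries. In the CD8 arm these lists summed to at most 13.2 CPM. The 8 dendritic cell markers summed to 38.9 CPM in the young and 556.9 CPM in the adult NK arm, where Xcr1, Clec9a and Siglech stayed at 0 and Ccr7 had 69 of its 72 UMIs in 1 barcode. In the CD8 arm they summed to 101 and 35.3 CPM, and 5 neutrophil markers to 156 CPM in the young and 22.1 CPM in the adult library. In 1 of 10 young and 4 of 17 adult NK-arm barcodes no UMI of Nkg7, Gzma, Gzmb or Prf1 was read, and their median share of class II genes was 6.73% and 6.37%. No CD8-arm barcode lacked all 4 genes, for which the exact 95% upper limits were 9.74% of the young and 11.9% of the adult arm. The label of NK cells therefore did not hold for these 5 barcodes by their transcripts, although all of them met the rule.

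Depth differed between arms and ages. The median barcode held 13239 UMIs in the young and 5526 UMIs in the adult CD8 arm, and 7879 and 12220 UMIs in the NK arm, beside 10096 and 9861 UMIs in the macrophage reference. Without the barcodes rich in myeloid RNA, the medians were 8648 and 4573 UMIs in the CD8 arm and 4214 and 9979 UMIs in the NK arm. In total the CD8 arm gave 492970 and 226634 UMIs and the NK arm 102730 and 211871, so the young NK arm was measured least precisely. To compare shares of barcodes with a UMI, each barcode was thinned to 1000 UMIs, which left out 1 adult NK-arm barcode below that depth.

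The share of CD8-arm barcodes did not differ between the ages beyond counting error. They made up 0.543% (exact binomial interval 0.381 to 0.752%) of 6624 young and 0.550% (0.369 to 0.789%) of 5271 adult barcodes kept under 5 mCherry UMIs, a ratio of 0.988 (0.607 to 1.61). NK-arm barcodes made up 0.151% (0.0724 to 0.277%) of the young and 0.323% (0.188 to 0.516%) of the adult barcodes, a ratio of 0.468 (0.215 to 1.02) whose interval reached 1. The ages differed in what surrounded the CD8 arm. Among barcodes that passed the CD3 gate or the NK gate, 36 of 73 young (49.3%) and 29 of 138 adult (21.01%) were in the CD8 arm, a ratio of 2.35 (1.58 to 3.50), since 27 young and 92 adult barcodes had CD3 but no CD8 UMI. The NK arm took 13.7% and 12.3% of the same barcodes. For each NK-arm barcode there were 3.6 (1.75 to 8.13) CD8-arm barcodes in the young and 1.71 (0.907 to 3.31) in the adult library. These ratios differed by 2.11 (0.768 to 5.97), and by 0.945 (0.269 to 3.38) once barcodes rich in myeloid RNA were left out, when the ratio of shares was 0.668 for the CD8 arm and 0.707 for the NK arm. All shares were set by a sort for mCherry and are not shares of a tumour.

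The arms differed first in the genes of the T cell receptor, which the rule drew on only through CD3. Of 4214 genes with at least 10 UMIs over both arms in each library, 106 (2.52%) were at least 2-fold higher in the CD8 arm in both libraries and 48 (1.14%) at least 2-fold higher in the NK arm. This limit was set on the ratio of CPM + 10, and a gene past it is said here to be called. Folds in the text are plain ratios of CPM. In the list of the T cell receptor complex and its coreceptors, 6 of 9 measured genes were higher in the CD8 arm and 0 in the NK arm, with a median log2 ratio of 2.78 (2.07 with genes at 0 set to the value that 3 UMIs would give), beside 0.14 over all measured genes. The rule fixed this direction in large part.

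Trac, the constant segment of the T cell receptor alpha chain, was read in 34 of 36 young and 24 of 29 adult CD8-arm barcodes, at 351 and 627 CPM. In the NK arm it was at 0 UMIs in the young and at 2 UMIs in the adult library, at least 12.02-fold lower and 66.4-fold (interval 18.04 to 553) lower. The beta chain was less exclusive. Trbc2 stood at 1022 and 1637 CPM in the CD8 arm and at 156 and 208 CPM in the NK arm, and Trbc1 at 781 and 1227 CPM and 565 and 429.5 CPM. A constant segment of the alpha or beta chain was found in 9 of 10 young and 12 of 17 adult NK-arm barcodes, while only 122 of 5869 and 104 of 4440 macrophage-reference barcodes had one. Reads of Trbc1 and Trbc2 are hard to separate, since the genes are near-identical. Gamma chain constant segments were found in 1 of 36 young and 0 of 29 adult CD8-arm barcodes and in none of the NK arm. Trdc is the delta chain constant segment and lies within the alpha locus. It was read together with Trac in 14 of 36 young and 5 of 29 adult CD8-arm barcodes. The pair was also read in 1 of 27 young and 15 of 92 adult barcodes with CD3 but no CD8 UMI. None of the macrophage reference or the NK arm held it, but the NK arm had only 0 and 2 Trac UMIs. Trdc without Trac was read in the NK arm. Single young barcodes held 2, 1, 1 and 5 UMIs of it, and the barcode with 5 was rich in myeloid RNA.

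Surface partners of the receptor followed it. Cd5 and Cd6, which set the threshold of T cell receptor signals, stood at 60.9 and 61.8 CPM and 79.1 and 92.7 CPM in the young and adult CD8 arm and at 0 UMIs in the NK arm, a gap of at least 2.08-fold in the young and at least 4.36-fold in the adult library for Cd5. Cd2, an adhesion receptor, was higher in the CD8 arm by 6.43-fold (interval 3.21 to 15.1) and 12.5-fold (interval 6.35 to 27.9).

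Signalling genes divided along the same line. Of 19 measured genes of receptor-proximal signalling, 6 (among them Zap70, Lat, Cd247, Fyn and Lcp2) were higher in the CD8 arm and 2 (Tyrobp and Txk) in the NK arm, with a median log2 ratio of 0.42. Lat, the scaffold that the T cell receptor kinase phosphorylates, stood at 402 and 529 CPM in the CD8 arm and 58.4 and 4.72 CPM in the NK arm. Txk, a Tec-family kinase, went the other way with 36.5 and 35.3 CPM against 302 and 208 CPM. Tyrobp, the adaptor DAP12 through which activating NK receptors signal, stood at 3407 and 2195 CPM in the NK arm and 1633 and 715 CPM in the CD8 arm. Macrophages carry it too (3870.1 and 3369 CPM in the reference), and without barcodes rich in myeloid RNA the CD8 arm had 178 and 113 CPM and the NK arm 3096 and 1854 CPM. The same step widened the gap of Fcer1g, the signalling chain of Fc receptors, to 178 and 239 CPM against 3003 and 2122 CPM, whereas over all barcodes it was not 2-fold apart in both libraries.

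Granule genes gave the widest contrast between the arms and also the most uneven one among barcodes. Of 17 measured genes of granules and death receptors' ligands, 2 (Gzmb and Gzmk) were higher in the CD8 arm and 6 (Gzma, Gzmc, Gzmd, Gzme, Gzmf and Cst7) in the NK arm, with a median log2 ratio of -0.66. Granzyme B and the granzymes C to F are neighbours in 1 cluster on chromosome 14 of mm10. In the GENCODE annotation Gzmb lies at chr14:56258838-56262260, Gzmc at chr14:56231441-56234656, Gzmd at chr14:56129556-56132608 and Gzme at chr14:56117626-56120625, all on the minus strand, while Gzma lies elsewhere, at chr13:113093825-113100981 on the plus strand. The 250 bases before the RefSeq start of 4 members of the cluster (build GRCm38.p6) are shown because Gzmb and its 3 neighbours went opposite ways between the arms. Capitals mark the core of the binding motif of RUNX factors, TGTGGT on either strand.
Gzmb at chr14:56262335-56262584, minus strand: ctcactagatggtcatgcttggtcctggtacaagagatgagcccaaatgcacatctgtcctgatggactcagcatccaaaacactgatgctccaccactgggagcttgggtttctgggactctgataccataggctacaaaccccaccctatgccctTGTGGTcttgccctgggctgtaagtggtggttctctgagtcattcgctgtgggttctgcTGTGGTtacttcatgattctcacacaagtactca
Gzmc at chr14:56234658-56234907, minus strand: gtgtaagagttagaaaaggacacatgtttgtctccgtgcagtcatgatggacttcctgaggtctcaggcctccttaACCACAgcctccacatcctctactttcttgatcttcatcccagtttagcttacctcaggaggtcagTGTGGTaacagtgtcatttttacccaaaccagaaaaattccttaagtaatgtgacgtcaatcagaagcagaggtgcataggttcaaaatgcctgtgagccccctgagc
Gzmd at chr14:56132594-56132843, minus strand: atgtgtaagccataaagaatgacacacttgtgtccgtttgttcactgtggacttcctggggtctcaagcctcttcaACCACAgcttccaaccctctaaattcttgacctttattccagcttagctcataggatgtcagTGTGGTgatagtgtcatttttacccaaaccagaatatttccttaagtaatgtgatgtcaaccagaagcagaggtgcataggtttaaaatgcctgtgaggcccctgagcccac
Gzme at chr14:56120626-56120875, minus strand: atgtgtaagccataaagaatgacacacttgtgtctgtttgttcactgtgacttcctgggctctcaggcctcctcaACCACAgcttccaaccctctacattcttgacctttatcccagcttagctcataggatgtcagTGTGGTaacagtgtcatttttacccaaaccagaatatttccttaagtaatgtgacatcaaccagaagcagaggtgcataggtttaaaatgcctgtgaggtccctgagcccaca
Each window held 2 matches to the RUNX core and 0 to the T-box core GGTGTG on either strand, and the motifs do not overlap each other. Over 32851 mouse promoter windows of that length, 4614 (14.05%) held the RUNX core and 5347 (16.3%) the T-box core. Of the 18 granule-list genes with a RefSeq promoter, 13 held the RUNX core and 6 the T-box core. A gene counted here if any of its windows held the core, unlike the shares of single windows above. The 13 include Gzmb, Gzmc, Gzmd, Gzme and Gzmf of the 1 cluster, and enrichment was not tested. Aligned end to end, the windows of Gzmd and Gzme had 94.8% identical positions, Gzmc matched them at 81.5% and 82.1%, and Gzmb matched the other three at 50.7 to 51.9%. The letters before Gzmc, Gzmd and Gzme were thus alike and those before Gzmb were not, while the RUNX core was shared by all 4. A match is no evidence of binding, and the annotated GENCODE start of Gzmb lies 75 bases downstream of its window, while 15 bases of the Gzmd window lie inside a GENCODE transcript.

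Gzmb, the main caspase-activating granzyme, was read in 33 of 36 young and 24 of 29 adult CD8-arm barcodes and in 8 of 10 and 13 of 17 NK-arm barcodes. Its level was 2209 CPM (2079.8 to 2344) and 3848 CPM (3596 to 4112) in the CD8 arm and 973 CPM (792 to 1184) and 1133 CPM (994 to 1286) in the NK arm. The CD8 arm was higher by 2.27-fold (interval 1.85 to 2.81) in the young and 3.40-fold (interval 2.94 to 3.93) in the adult library. Gzmb was thus a gene of both arms, with the larger amount in the CD8 arm. Gzmk, a granzyme with trypsin-like activity, was read at 95.3 and 119 CPM in the CD8 arm and at 9.73 and 0 CPM in the NK arm.

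Gzma, the other abundant granzyme of killer cells, had the opposite balance. It stood at 4264 CPM (3874 to 4682) and 1831 CPM (1654 to 2023) in the NK arm and at 331 CPM (282 to 385) and 905 CPM (785 to 1037) in the CD8 arm. The NK arm was higher by 12.9-fold (interval 10.7 to 15.5) in the young and by 2.02-fold (interval 1.70 to 2.41) in the adult library. Gzma was found in 9 of 10 young and 9 of 17 adult NK-arm barcodes against 20 of 36 and 14 of 29 CD8-arm barcodes, and Gzmb without Gzma in 15 of 36 and 12 of 29 CD8-arm barcodes but 0 of 10 and 4 of 17 of the NK arm. The gap was therefore one of level more than of presence. It narrowed without barcodes rich in myeloid RNA, to 469 and 1334 CPM in the CD8 arm and 3619 and 2318 CPM in the NK arm, and the adult library then fell short of 2-fold.

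The cluster granzymes C, D and E were nearly confined to the NK arm, and within it to a minority of barcodes. Gzmc reached 6561 CPM (6075 to 7075) in the young and 8123 CPM (7744 to 8516) in the adult NK arm. In the CD8 arm it had 0 UMIs in the young and 1 UMI in the adult library, at least 1078-fold lower in the young. No more than 4 of 10 young and 8 of 17 adult NK-arm barcodes held it, and 2 barcodes carried 70.2% of its young and 60.95% of its adult UMIs. Gzmd stood at 1363 and 283 CPM in the NK arm against 5 and 0 UMIs in the CD8 arm, and Gzme at 1188 and 189 CPM against 4 and 0 UMIs. Gzmf had 75 UMIs in 1 young and 115 UMIs in 2 adult NK-arm barcodes, and 19 UMIs in 4 young and 0 in adult CD8-arm barcodes. The young NK barcode was rich in myeloid RNA, and without such barcodes Gzmf turned direction in the young library, at 18 UMIs in the CD8 arm and 0 in the NK arm, at least 2.10-fold higher in the CD8 arm, so only Gzmc, Gzmd and Gzme of the cluster were then called toward the NK arm. Any of the 4 genes was found in 4 of 10 and 8 of 17 NK-arm barcodes and in 4 of 36 and 1 of 29 CD8-arm barcodes. The 4 young NK barcodes with Gzmc also held Gzma and Gzmd, while 4 of the 8 adult ones held no Gzma. These genes are close copies of each other, so the count of each single one is uncertain.

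Perforin and the granule membrane protein Nkg7 were read in both arms and were not called between them. Prf1 stood at 211 and 150.02 CPM in the CD8 arm and 428 and 354 CPM in the NK arm, 2.03-fold (interval 1.39 to 2.91) and 2.36-fold (interval 1.55 to 3.65) higher in the NK arm with intervals clear of 1, which passed 2-fold on the scale of CPM + 10 in 1 library only. Nkg7 stood at 2315 and 2153 CPM and 1665 and 1208 CPM. Gzmb and Prf1 were read together in 21 of 36 young and 8 of 29 adult CD8-arm barcodes and in 5 of 10 and 10 of 17 NK-arm barcodes, and in 0 of 5869 and 0 of 4440 barcodes of the macrophage reference. The pore and its main cargo were thus read in single barcodes of every group.

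**Figure D2:**
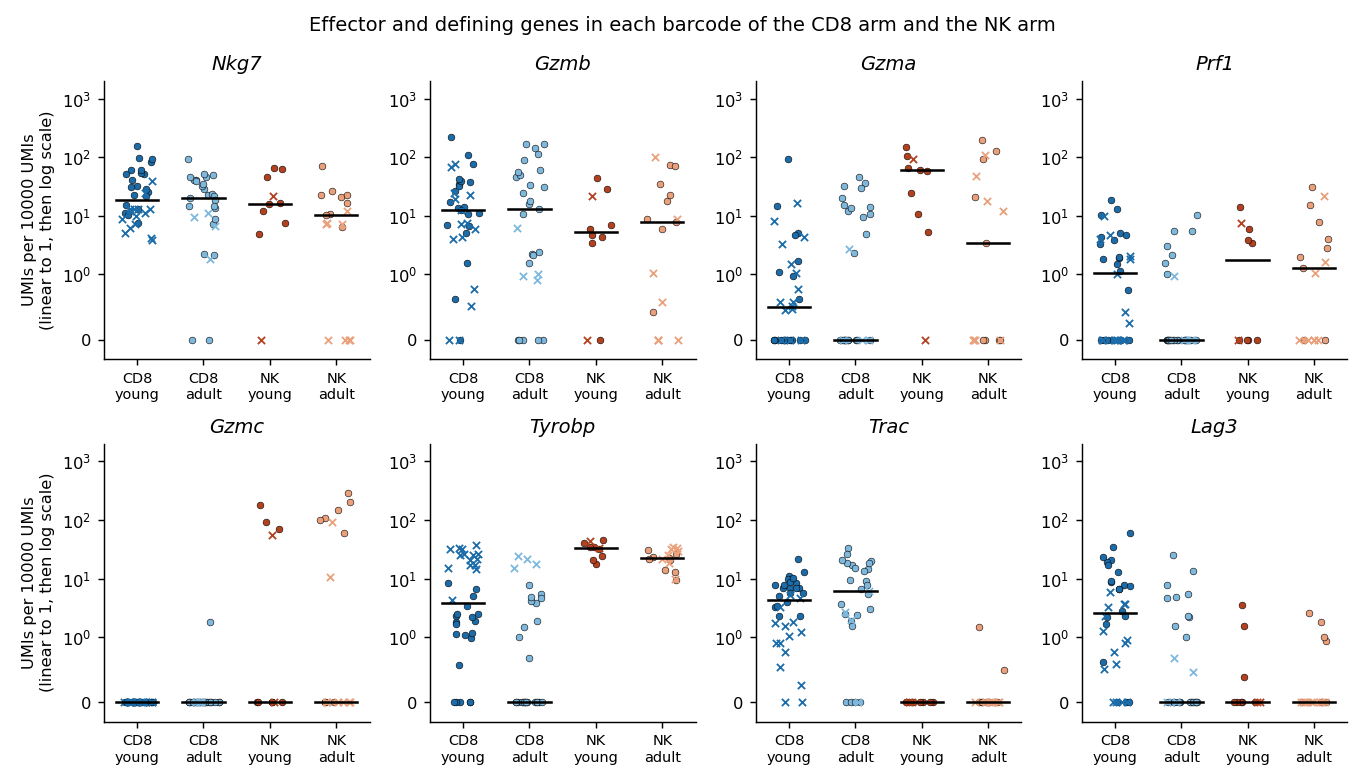
UMIs per 10000 UMIs (y axis, linear to 1 and then logarithmic) of 8 genes in each barcode of the CD8 and NK arms, young and adult; dots are barcodes, crosses barcodes rich in myeloid RNA, and lines medians. Gzmc lies at 0 in all but 1 CD8-arm barcode and above 0 in 4 young and 8 adult NK-arm barcodes, while Nkg7 and Gzmb appear in every group.

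NK receptors marked the NK arm through the Ly49 family. Of 11 measured NK receptor genes, 5 (Klra4, Klra7, Klra8, Klri2 and Cd244) were higher in the NK arm and 1 (Cd160) in the CD8 arm, with a median log2 ratio of -0.73, and without barcodes rich in myeloid RNA Klra7, Klra8, Klri2 and Cd160 of 7 measured were still called. A UMI of any Klra gene was found in 9 of 10 young and 10 of 17 adult NK-arm barcodes and in 0 of 36 and 0 of 29 CD8-arm barcodes. Barcodes with CD3 but no CD8 UMI had one in 5 of 27 young and 5 of 92 adult cases. In the macrophage reference 85 of 5869 and 37 of 4440 did. Klra8, the activating receptor Ly49H, stood at 107 and 156 CPM in the NK arm, at least 17.6-fold and at least 11.8-fold above the CD8 arm. Klra7, which encodes Ly49G2, stood at 292 and 47.2 CPM, and the copies within this family are again hard to tell apart. Receptors shared with activated T cells did not separate the arms. Klrd1, the CD94 chain, stood at 611 and 402 CPM in the CD8 and 769 and 699 CPM in the NK arm, and Klrk1, the activating receptor NKG2D, at 302 and 265 and 477 and 472 CPM. Cd160, a receptor of intraepithelial and activated CD8 T cells as well as NK cells, was higher in the CD8 arm with 134 and 189.7 CPM against 29.2 and 14.2 CPM.

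Among the other genes furthest toward the NK arm were Car2, a carbonic anhydrase, with 253 and 175 CPM against 4.06 and 4.41 CPM, Klrb1b, an inhibitory NKR-P1 lectin, with 175 and 245 CPM against 12.2 and 8.82 CPM, and Spry2, an inhibitor of growth factor signals, with 87.6 and 118 CPM against 2.03 and 0 CPM. Eomes, the T-box factor of NK cells, had 7 and 12 UMIs in the NK arm and 2 and 3 UMIs in the CD8 arm, and was too low to be measured by the UMI minimum. Of the list of type 1 innate lymphoid cells, which share Ncr1 and Klrb1c with NK cells, only Cxcr6 and Il7r were measured and both were higher in the CD8 arm. Of the mature NK list, 3 of 5 measured genes were higher in the NK arm, Klra8 and Irf8 among them.

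Beside the NK arm, the CD8 arm stood out by activation receptors. Of 13 measured coinhibitory and exhaustion genes, 5 (Pdcd1, Ctla4, Lag3, Batf and Irf4) were higher in the CD8 arm and 0 in the NK arm, with a median log2 ratio of 1.36 (0.83 with genes at 0 set to 3 UMIs). Irf4 had 0 UMIs in the young NK arm, and with 3 UMIs there the young CD8 arm would be at 0.97-fold. It was not called without barcodes rich in myeloid RNA. Lag3, which binds MHC class II, stood at 458 CPM (401 to 522) and 309 CPM (241 to 390.2) in the CD8 arm and 38.9 CPM (10.6 to 99.7) and 61.4 CPM (32.7 to 105) in the NK arm. Pdcd1, which encodes PD-1, stood at 122 and 150.02 CPM against 48.7 and 9.44 CPM, and Ctla4 at 231 and 252 CPM against 77.9 and 18.9 CPM. Pdcd1 and Lag3 were read together in 20 of 36 young and 8 of 29 adult CD8-arm barcodes. In the NK arm 1 of 10 and 0 of 17 held both, and none of the macrophage reference did. Of barcodes with CD3 but no CD8 UMI, 6 of 27 young and 10 of 92 adult held both. Havcr2, which encodes TIM-3, stood at 138 and 110.3 CPM in the CD8 arm and 0 and 61.4 CPM in the NK arm, and 12 of the 13 adult NK UMIs lay in barcodes rich in myeloid RNA. It was 2-fold apart in both libraries only without those barcodes, when 6 of 8 measured genes of the list were called toward the CD8 arm.

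Costimulatory receptors gave the same picture. Of 7 measured, 4 (Tnfrsf4, Tnfrsf18, Icos and Cd27) were higher in the CD8 arm and 0 in the NK arm, with a median log2 ratio of 1.67. Icos, a relative of CD28, stood at 181 and 194 CPM in the CD8 arm and 19.5 and 18.9 CPM in the NK arm. Tnfrsf18, which encodes GITR, stood at 237 and 406 CPM and 29.2 and 156 CPM. Both NK arms lay below both CD8 arms for these genes.

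Homing genes were divided. Cxcr6, a chemokine receptor of tissue-resident T cells, stood at 252 and 252 CPM in the CD8 arm and at 1 UMI in either NK arm, 25.8-fold (interval 4.55 to 1029) and 53.3-fold (interval 9.19 to 2141) higher in the CD8 arm. S1pr4 was also higher in the CD8 arm, with 46.7 and 110.3 CPM against 9.73 and 9.44 CPM. Of the 14 measured homing genes, 2 were thus higher in the CD8 arm and 1 in the NK arm.

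Cytokine genes leaned to the CD8 arm. Of 7 measured, Ifng and Ccl3 were higher in the CD8 arm and 0 in the NK arm, with a median log2 ratio of 1.06. Ifng, interferon gamma, stood at 793 and 613 CPM in the CD8 arm and 127 and 104 CPM in the NK arm, 6.27-fold (interval 3.62 to 11.9) and 5.91-fold (interval 3.75 to 9.73) higher. It was read in 24 of 36 and 13 of 29 CD8-arm barcodes, and 1 barcode carried 42.97% of the young and 51.8% of the adult UMIs. Ccl3 and Ccl4, the chemokines MIP-1 alpha and beta, were also high in the macrophage reference (439 and 425 CPM and 1307 and 1011 CPM). Without barcodes rich in myeloid RNA, Ccl3 stood at 3322 and 1307 CPM in the CD8 arm and 108 and 35.7 CPM in the NK arm, and Ccl4 and Ltb joined the genes higher in the CD8 arm. Xcl1, the chemokine that attracts cross-presenting dendritic cells, was not called between the arms, with 139.97 and 278 CPM in the CD8 and 282 and 1086 CPM in the NK arm.

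Several other lists had few or no members called between the arms over all barcodes. Of all measured genes, 2.52% were called higher in the CD8 arm and 1.14% in the NK arm. Low counts in lists this small therefore do not show that the arms were alike in them. None of 13 glycolysis and oxidative phosphorylation genes was 2-fold apart in both libraries, and the immediate early and heat shock list had Jun and Hspa1b higher in the NK arm among 13. Of 12 measured lineage factors only Rora and Bcl11b were called, both in the CD8 arm and Rora alone without barcodes rich in myeloid RNA, and of 14 cytokine receptors only Il2ra and Il7r, where Il2ra fell short of 2-fold without its richest barcodes. Among 18 measured interferon-stimulated genes 0 were called. Without barcodes rich in myeloid RNA, 5 of 12 measured (among them Zbp1, Ifi27l2a, Gbp2 and Ly6a) were higher in the CD8 arm, where 131 of 2422 measured genes (5.41%) were higher in the CD8 arm and 32 (1.32%) in the NK arm. Ifi27l2a stood there at 2448 and 916 CPM in the CD8 arm and 108 and 26.7 CPM in the NK arm. Macrophage genes themselves appeared among those higher in the CD8 arm, 4 of 12 (C1qa, C1qb, C1qc and Ms4a7), and 0 of the 3 still measured without the barcodes rich in myeloid RNA, where Ms4a7 turned direction. Of the cell cycle list, Rrm2 and Tk1 were higher in the NK arm, and neither stayed 2-fold apart once the NK-arm barcode with the most UMIs of the gene was dropped from each library.

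**Figure D3:**
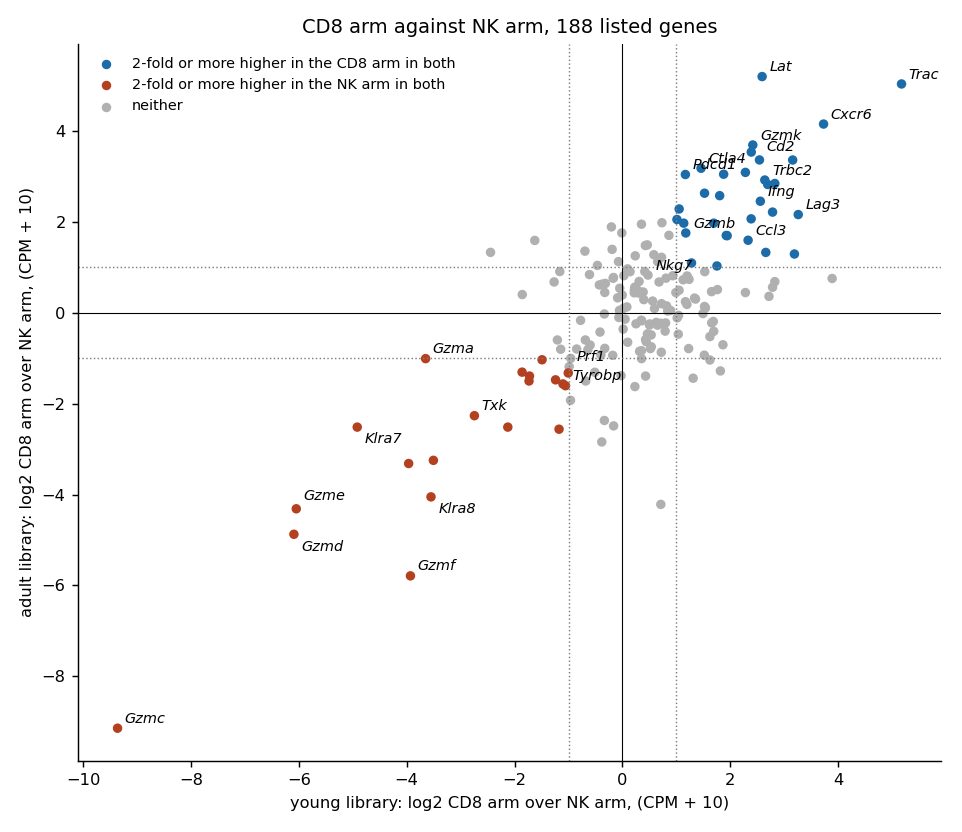
Log2 ratio of the CD8 arm over the NK arm, on CPM + 10, in the young (x axis) and adult library (y axis) for 188 listed genes; blue points were at least 2-fold higher in the CD8 arm in both libraries (32 genes), red points in the NK arm (20 genes), and dotted lines mark 2-fold. Gzmc, Gzmd and Gzme lie furthest to the lower left and Trac furthest to the upper right, while Nkg7 lies inside the 2-fold lines.

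Barcodes with CD3 but no CD8 UMI, 27 young and 92 adult, were set beside both arms. A gamma chain constant segment was read in a minority of them, with 38 of 92 positive against 0 of 29 adult CD8-arm barcodes, while the young had 4 of 27 and 1 of 36. Gzmb and Prf1 were read together in 6 of 27 young and 4 of 92 adult barcodes of that kind, a smaller share than in either arm of the same library. Gzma stood there at 2852 CPM in the young and 14.7 CPM in the adult library. The young level came from a minority of the 27 barcodes. A list of 8 NK cell markers that includes Gzma took a median 0% of UMIs per young barcode. Gzma and Gzmb were read together in 4 of 27 young and 3 of 92 adult barcodes. Of these CD8-negative barcodes, 5 young and 2 adult held 2 or more NK UMIs. These contrasts use genes close to the rule and were not tested.

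Between the ages, the genes of the T cell receptor, Gzmb, Prf1 and Nkg7 stayed within 2-fold in the CD8 arm, while Klf2, Cxcr3, Cd7 and some other genes of trafficking and memory were lower and the cytokine genes Tnf and Ccl4 higher in the young. Of 5944 genes with at least 10 UMIs over both ages, 256 (4.31%) were at least 2-fold higher in the young and 154 (2.59%) at least 2-fold lower, with a counting interval of the ratio that did not hold 1. A gene had to meet both conditions to be called between ages. The median log2 ratio of all measured genes was 0.01. Since each age is 1 library of pooled tumours, the age, the pool and the library cannot be told apart. The young CD8 arm also held more barcodes rich in myeloid RNA, and without them the counts were 115 (3.18%) higher and 115 (3.18%) lower of 3616 measured.

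None of the 9 genes of the T cell receptor complex was called between the ages, with a median log2 ratio of -0.56, and Trac stood at 351 and 627 CPM. Gzmb was 1.74-fold (interval 1.59 to 1.91) higher in the adult, below the 2-fold limit, and Prf1 stood at 211 and 150.02 and Nkg7 at 2315 and 2153 CPM. Of 14 measured granule genes, Gzmf and Serpinb6b were higher and Gzma and Ctsw lower in the young CD8 arm, with the same 4 called without barcodes rich in myeloid RNA. Without the richest barcode Serpinb6b was under 2-fold (log2 ratio 0.97), while Gzmf (1.16) and Ctsw (-1.41) were not. Of 19 young Gzmf UMIs, 13 lay in 1 barcode. With barcodes rich in myeloid RNA left out as well, Ctsw came under 2-fold (-0.94) and Serpinb6b did not (1.09). Gzma was 2.74-fold (interval 2.22 to 3.38) higher in the adult, with 54 of 163 young and 68 of 205 adult UMIs in 1 barcode. Dropping the richest barcode brought it under 2-fold. Ctsw, a cathepsin of killer cells, was read in 21 of 36 young and 24 of 29 adult barcodes, at 122 and 371 CPM, and after thinning to 1000 UMIs in 4 of 36 and 9 of 29. Both measures were higher in the adult.

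Some genes of recirculating and memory T cells were lower in the young CD8 arm. Of 10 measured genes of naive, memory and progenitor T cells, 4 (Tcf7, Slamf6, Satb1 and Klf2) were lower and 0 higher, with a median log2 ratio of -0.54, and without barcodes rich in myeloid RNA Slamf6 and Klf2 were still called. Without the adult barcode richest in the gene, Slamf6 and Satb1 were under 2-fold, at log2 ratios of -0.93 and -0.85. Klf2, the factor that keeps egress and homing genes on, stood at 36.5 CPM (21.6 to 57.7) in the young and 371 CPM (296 to 459) in the adult CD8 arm, 10.2-fold (interval 6.05 to 17.95) higher in the adult. It was read in 10 of 36 young and 11 of 29 adult barcodes, so the difference lay in the amount in some barcodes: 4 adult and 1 young barcode held 5 or more UMIs, and 39 of the 84 adult UMIs lay in 1 barcode. Tcf7, the factor of progenitor T cells, had 1 UMI in 1 young and 9 UMIs in 6 adult barcodes. Slamf6, a receptor kept on progenitor T cells, was 2.97-fold (interval 1.27 to 7.14) higher in the adult, with 11 young and 15 adult UMIs, and its direction turned when barcodes were thinned.

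Homing receptors were mixed. Of 16 measured homing genes, 4 (Cxcr3, S1pr4, Itgb1 and Itgb7) were lower in the young CD8 arm and 2 higher. S1pr4 and Itgb1 were under 2-fold without the adult barcode richest in the gene, at log2 ratios of -0.72 and -0.76. Once barcodes rich in myeloid RNA were left out, S1pr4 was not called and Ccr2 was called lower in its place. Cxcr3, the receptor for interferon-induced chemokines, had 6 UMIs in 5 of 36 young and 23 UMIs in 12 of 29 adult barcodes, 8.34-fold (interval 3.30 to 25.03) higher in the adult. Itgb7, an integrin beta chain that pairs with the alpha E and alpha 4 chains, stood at 73.03 and 185 CPM, and at 91.7 and 239 CPM without barcodes rich in myeloid RNA. The 2 homing genes higher in the young, Cx3cr1 and Itgam, are also macrophage genes, and neither was called without those barcodes. Cxcr6 stood at 252 and 252 CPM in the young and adult arm. Cd7, a receptor of T and NK cells, was lower in the young at 38.5 against 234 CPM, as was Hsd11b1, the enzyme that regenerates active glucocorticoid, at 12.2 against 79.4 CPM.

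Of 8 measured cytokine genes, Tnf and Ccl4 were higher in the young CD8 arm and 0 lower over all barcodes, with a median log2 ratio of 0.46. Tnf had 146 UMIs in 26 of 36 young and 15 UMIs in 6 of 29 adult barcodes, 4.47-fold (interval 2.63 to 8.20) higher in the young. It was read at 327 and 259 CPM in the macrophage reference, and without barcodes rich in myeloid RNA at 226 and 19.9 CPM in the CD8 arm. Ccl4 was read in 36 of 36 young and 19 of 29 adult barcodes, at 4976 and 1964 CPM, and 1 young barcode held 30.98% of the young UMIs. Without that barcode the ratio was under 2-fold. Without barcodes rich in myeloid RNA Ifng and Ccl3 joined them, with Ifng at 1381 and 418 CPM and Ccl3 at 3322 and 1307 CPM in the young and adult CD8 arm. A single young barcode held 168 of the 256 young Ifng UMIs and 339 of the 616 Ccl3 UMIs among these. Without it too, Ifng stood at 499 and 418 CPM and Ccl3 at 1571 and 1307 CPM, neither of them 2-fold apart, while Ccl4 stood at 3773 and 1280.4 CPM. Over all barcodes neither Ifng nor Ccl3 reached 2-fold, and without the richest young barcode the log2 ratio of Ifng was -0.40. The young and adult arm differed in how many barcodes were removed.

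Coinhibitory genes differed little in level. Of 13 measured, only Rgs16, a regulator of G protein signals, was called, at 286 and 101 CPM and 2.82-fold (interval 1.81 to 4.59) higher in the young, and the median log2 ratio was -0.11. Pdcd1 was 1.23-fold (interval 0.785 to 1.91) higher in the adult and Lag3 1.48-fold (interval 1.13 to 1.97) higher in the young. By barcodes, Pdcd1, Lag3 or Havcr2 was read in 35 of 36 young and 19 of 29 adult members. The young barcodes were deeper, and Havcr2 alone was found in 53.7% and 53.5% of the young and adult macrophage reference. After thinning to 1000 UMIs, Lag3 was read in 16 of 36 young and 4 of 29 adult barcodes, against 29 of 36 and 12 of 29 unthinned. Without barcodes rich in myeloid RNA, Lag3 stood at 949 and 445 CPM and was called higher in the young, though not without its richest barcode (780 and 445 CPM), and the transcription factor gene Nfatc1 lower. None of 8 measured costimulatory genes was called.

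Interferon-stimulated genes were higher in the young CD8 arm as read, and most of that went with the barcodes rich in myeloid RNA. Of 21 measured, 8 were higher in the young and 0 lower, with a median log2 ratio of 0.77. Without those barcodes 1 of 18 was called, and the median was -0.18. Isg15, a ubiquitin-like interferon response gene, stood at 694 and 163 CPM over all barcodes and at 286 and 159 CPM without them, and Irf7 at 314 and 132 and 53.9 and 92.9 CPM, beside 1331 and 934 CPM and 924 and 489.99 CPM in the macrophage reference. The gene called both ways was Ifi27l2a, read in 33 of 36 young and 18 of 29 adult barcodes. It stood at 2201 CPM (2072 to 2336) in the young and 905 CPM (785 to 1037) in the adult arm, and at 2448 and 916 CPM without the barcodes rich in myeloid RNA. Macrophage genes moved the same way: 5 of 12 (among them Lyz2, Csf1r, Cd14 and Fcgr1) were higher in the young CD8 arm and 0 of the 5 measured without those barcodes, and of the neutrophil list S100a8 and S100a9 were higher. Of the 10 genes furthest toward the young, Rsad2, Mmp12, Acod1, Nos2 and Cebpb are known in activated macrophages. Rsad2 stood at 276 and 13.2 CPM, and at 32.4 and 0 CPM without those barcodes. In the signalling list, Syk, Tyrobp and Fcer1g were higher in the young over all barcodes and 0 without them, while Skap1, an adaptor of integrin activation, was lower in both (73.03 and 181 CPM over all).

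**Figure D4:**
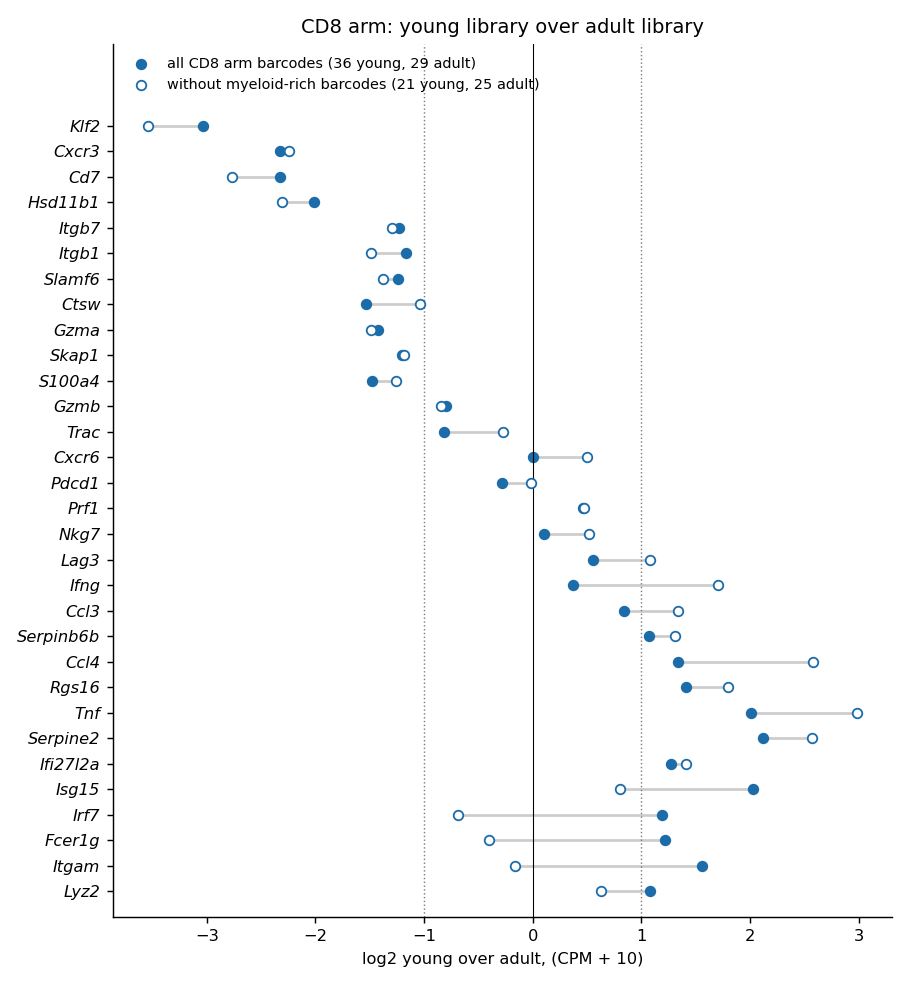
Log2 ratio of young over adult in the CD8 arm, on CPM + 10, for 31 genes (y axis); filled points use all barcodes (36 young, 29 adult), open points those without much myeloid RNA (21 young, 25 adult), and dotted lines mark 2-fold. Klf2, Cxcr3, Cd7 and Hsd11b1 lie left of the lower line either way, Tnf and Ifi27l2a right of the upper line, and Irf7, Fcer1g and Itgam cross 0.

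Of 18 measured cell cycle genes in the CD8 arm, Pclaf and Ube2c were higher and Cenpf lower in the young, and without barcodes rich in myeloid RNA 5 of 17 were higher and 0 lower. Pclaf and Ube2c were under 2-fold without their richest young barcode, at log2 ratios of 0.66 and 0.94. Ube2c, a ubiquitin-conjugating enzyme of mitosis, turned direction when barcodes were thinned. Top2a or Mki67 was read in 9 of 36 young and 6 of 29 adult barcodes, against 430 of 5869 and 293 of 4440 in the macrophage reference, and 2 young and 0 adult barcodes held 5 or more Top2a UMIs. At least 3 genes of the list were read in 25 of 36 young and 15 of 29 adult barcodes (69.4% and 51.7%), beside 46.9% and 46.7% of the reference, at unlike depths.

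In the NK arm the ages rested on 10 and 17 barcodes. Of 3428 measured genes, 49 (1.43%) were at least 2-fold higher in the young and 191 (5.57%) lower, and without barcodes rich in myeloid RNA 32 (1.59%) and 112 (5.58%) of 2007. The median log2 ratio of all measured genes was -0.14.

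Cell cycle genes were lower in the young NK arm. Of 16 measured, 10 (Mki67, Top2a, Stmn1, Birc5, Ccnb2, Pclaf, Rrm2, Hmgb2, Cks1b and Pcna) were lower and 0 higher, with a median log2 ratio of -1.30 (-1.08 with genes at 0 set to 3 UMIs), and the same 10 were called without barcodes rich in myeloid RNA. Few barcodes carried this. Stmn1, a microtubule regulator of dividing cells, had 16 UMIs in 1 young and 120 UMIs in 4 adult barcodes. Top2a had 5 UMIs in 1 young and 33 in 4 adult barcodes, 30 of the latter in 2 barcodes, and 1 young and 2 adult barcodes held 5 or more. Without the barcode richest in the gene, 7 of the 10 (Top2a, Birc5, Pclaf, Rrm2, Hmgb2, Cks1b and Pcna) were under 2-fold. With barcodes rich in myeloid RNA left out as well, only Pclaf was, at a log2 ratio of -0.85. Top2a, Birc5 and Rrm2 then lay close to the limit, at -1.04, -1.04 and -1.02. When barcodes with over 2 times the median depth of their library were left out, Hmgb2, Cks1b and Pcna turned direction. The list difference thus rested on few barcodes in each library.

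Granule genes in the NK arm moved in both directions. Of 15 measured, Gzma, Gzmd and Gzme were higher and Serpinb6b, a serine protease inhibitor, was lower in the young. Gzma was 2.33-fold (interval 2.03 to 2.68) higher in the young, with 203 of 438 young UMIs in 1 barcode. Without that barcode it was under 2-fold, and it was not called without barcodes rich in myeloid RNA. Gzmd was 4.81-fold (interval 3.53 to 6.63) and Gzme 6.29-fold (interval 4.37 to 9.23) higher in the young, each from 4 young barcodes against 5 and 3 adult ones. Of the young Gzme UMIs, 88 of 122 lay in 1 barcode, without which the log2 ratio fell from 2.59 to 1.18. Gzmd and Serpinb6b turned direction when barcodes were thinned. Gzmc was 1.24-fold (interval 1.13 to 1.36) higher in the adult, under the limit. Gzmb, Prf1 and Nkg7 were not called over all barcodes, at 973 and 1133, 428 and 354 and 1665 and 1208 CPM. Leaving out barcodes rich in myeloid RNA, Gzmb was called lower in the young, at 816 and 1890 CPM, and came under 2-fold again without its richest adult barcode, while Gzmf was called lower from 69 UMIs in 1 adult barcode.

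Receptors of the young NK arm were richer in single Ly49 genes. Of 11 measured NK receptors, Klra3 and Klra7 were higher and 0 lower in the young. Klra7 had 30 UMIs in 7 of 10 young and 10 UMIs in 4 of 17 adult barcodes, 6.19-fold (interval 2.94 to 14.2) higher. Klra8 stood at 107 and 156 CPM and Klrd1 at 769 and 699 CPM, neither of them called. Of the adult NK barcodes, 4 were those with no granule gene, against 1 of the young. Without barcodes rich in myeloid RNA, 0 of 8 young and 0 of 9 adult barcodes were of that kind. Klra3 and Klra7 were still called higher in the young there, at log2 ratios of 2.71 and 2.15. Of the 15 young Klra3 UMIs in that set, 12 lay in 1 barcode. The part of the barcodes with no granule gene was not tested on its own.

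Cytokine and activation genes were few. Xcl1 was lower in the young NK arm, at 282 and 1086 CPM, 3.85-fold (interval 2.61 to 5.87) higher in the adult, the only one of 7 measured cytokine genes called over all barcodes. Xcl1 was still lower without barcodes rich in myeloid RNA, and Ifng, with 11 young and 4 adult UMIs, and Ccl5, at 2942 and 1417 CPM, were called higher in the young. Without its richest barcode as well, Ccl5 stood at 2073 and 1417 CPM, under 2-fold, while Ifng stayed past 2-fold. Tnfrsf18 had 3 UMIs in 3 of 10 young and 33 UMIs in 11 of 17 adult barcodes, 5.33-fold (interval 1.67 to 27.2) higher in the adult. Of 8 measured coinhibitory genes, Ctla4 was higher and Havcr2 lower in the young, and without barcodes rich in myeloid RNA 0 of the 2 still measured were called, Havcr2 having 1 adult UMI left. Ctla4 had 8 UMIs in 2 young and 4 in 4 adult barcodes, and fell under 2-fold without 1 barcode.

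Myeloid genes were lower in the young NK arm, the reverse of the CD8 arm. Of 10 measured macrophage genes, 4 (C1qa, C1qb, C1qc and Cd14) were lower and Apoe was higher in the young, and of the dendritic list Ccr7 and Fscn1 were lower. Of 11 measured homing genes Ccr7 and Itgam were lower, and 0 without barcodes rich in myeloid RNA. Among the 10 genes furthest toward the adult, Ccl24, Ccl2, Chil3, Cd63 and Ptgs2 are known in macrophages, and the direction of Ccl2 and Ptgs2 turned without barcodes rich in myeloid RNA. Ccl24, an eotaxin, had 69 of its 76 adult NK UMIs in 1 barcode and stood at 45.8 and 1039 CPM in the macrophage reference. Fabp5, a fatty acid carrier, had 361 of its 369 adult UMIs in 1 barcode. Genes toward the young included Nrarp, a Notch pathway inhibitor, at 311 and 84.96 CPM but under 2-fold without its richest barcode (log2 ratio 0.71), and Ppp3cc, a calcineurin subunit, at 87.6 and 18.9 CPM.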

How the data were processed

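Single-cell RNA was measured in 2 libraries, 1 per age, of sorted tumour cells, and the members and gene lists were chosen with earlier results of these data known. The authors deposited UMI counts per gene and barcode for 31054 features, made with Cell Ranger 3.0.2 on mm10, per the submitters' processing notes; the gene annotation is not given in the sources used here.

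Both arms were found by their counts as the report states, and no doublet caller was run. Counts were summed over an arm in each library and divided by the arm's total to give CPM, with exact Poisson intervals. Ratios have conditional binomial intervals and shares exact Clopper-Pearson intervals, all at 95% and covering counting error only. Cells of 1 library are not replicates, so no test was made. Log2 ratios used a pseudocount of 10 CPM and genes with at least 10 UMIs over the groups compared. A count of 0 was set to 3 UMIs per arm and library for lower bounds. The contrast between ages was tried on simulated independent counts. These held no variation between barcodes, and the call between the arms was not simulated.

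The genes that could be named were every gene of the lists and, by rule, called genes with the largest log2 ratios (15 in each direction between the arms at 50 CPM or more, 10 in each direction between the ages with a UMI in at least 5 barcodes of the higher group), leaving out mitochondrial, ribosomal, haemoglobin, immunoglobulin and unnamed genes and those of the rule. The text names only some of the genes that this rule gives, and these were picked after their values were seen. Gene positions are from GENCODE on mm10 and promoters from RefSeq. Some genes are not reported here. Alternatives changed the cell filters, the gate, the mCherry limit, the denominator, the depth, the level, the UMI minimum and the pseudocount. Leaving out barcodes rich in myeloid RNA, or the barcode with the most UMIs of a gene in the higher group, or both, was chosen after seeing the data. Python 3.11.15, numpy 2.4.6, scipy 1.17.1, pandas 2.3.3 and matplotlib 3.10.9 were used.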

Additional observations from a re-analysis of the deposited data

Results flagged for a closer look

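Several genes were at least 2-fold apart between the ages in both arms but in opposite directions, and the difference between the arms was not tested. There were 32 such genes, of which 27 were higher in the young CD8 arm and lower in the young NK arm. Barcodes rich in myeloid RNA were spread the same way, 15 of 36 young and 4 of 29 adult in the CD8 arm and 2 of 10 and 8 of 17 in the NK arm, and without them 2 of the 32 genes were still called in both arms in opposite directions.

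Among genes named in the text, Gzma had a log2 ratio of young over adult of -1.42 in the CD8 arm and 1.21 in the NK arm, and -1.49 and 0.64 without barcodes rich in myeloid RNA. Serpinb6b had 1.07 in the CD8 arm and -1.38 in the NK arm, with 174 and 37 UMIs in the young and adult CD8 arm and 12 and 68 in the NK arm. Pclaf, a factor of DNA replication, had 1.25 in the CD8 arm and -1.21 in the NK arm, the latter from 1 young and 4 adult barcodes. Cd14, a macrophage gene, had 1.32 in the CD8 arm and -1.60 in the NK arm. Serpine2, a secreted serine protease inhibitor chosen after its values were seen, had 2.12 in the CD8 arm and -3.53 in the NK arm, where 51 of 70 adult UMIs lay in 1 barcode. Serpine2 and Pclaf were the 2 genes still called in both arms without barcodes rich in myeloid RNA, where 38 of 53 young CD8 UMIs of Serpine2 lay in 1 barcode. Itgam, an integrin chain of macrophages and NK cells, had 1.56 in the CD8 arm and -1.54 in the NK arm, and -0.16 and -0.53 without those barcodes.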

How the results depend on the processing

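With 1 library per age, counting intervals were the only measure of error, and the young NK arm with 102730 UMIs limited what could be read. No paired analysis was possible because each age was 1 library. The ratio of young to adult shares stayed within its interval under every alternative but the choice of denominator: among CD3 or NK gated barcodes it was 2.35 for the CD8 arm and 1.11 for the NK arm. Against 154 genes called between the arms, a minimum of 30 UMIs left 56 and a minimum of 3 UMIs gave 333, a pseudocount of 50 CPM gave 59 (36 higher in the CD8 arm), thinning to 1000 UMIs gave 35 (16 of them among the 154) and the mean of per-barcode CPM gave 263 (109 among them). Against 410 genes called in the CD8 arm between ages, a minimum of 30 UMIs left 246 (186 higher in the young), a pseudocount of 50 CPM 96 (79 higher), thinning gave 68 (24 of them among the 410) and leaving out barcodes rich in myeloid RNA 230 (115 higher, 81 of the 230 among the 410). Against 240 in the NK arm, the same 4 settings gave 124, 139, 26 and 144, of which 10 of the 26 and 68 of the 144 were among the 240. Fewer genes could be tested under the stricter minimum, the thinning and the smaller sets of barcodes, and the cause of the other changes was not tested.

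Of 1877 alternative values of single named genes, 19 reversed a called log2 ratio. Without barcodes rich in myeloid RNA, Ms4a7 between the arms came to -0.0926, Itgam, Fcer1g and Irf7 in the CD8 arm to -0.16, -0.40 and -0.69, and Ccl2 and Ptgs2 in the NK arm to 0.43 each. Thinning gave 0.61 for Rrm2 between the arms, 0.56 for Slamf6 and -0.79 for Ube2c in the CD8 arm, and -0.53 for Gzmd and 0.25 for Serpinb6b in the NK arm. Without barcodes over 2 times the median depth, Rrm2 and Tk1 came to 2.04 and 0.66 between the arms, and Hmgb2, Cks1b and Pcna to 0.55, 0.63 and 0.35 in the NK arm. Leaving out barcodes with a macrophage share over 0.5 times the reference median gave -0.35 for C1qa between the arms, the stricter gate gave 1.01 for Ccr7 in the NK arm, and only barcodes with 0 mCherry UMIs gave 0.17 for Hspa1b between the arms. The cause was not tested.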
